A study of Danio rerio with 32 samples.

Results

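Larvae mosaic for knockout of keap1b alone (crkeap1b) were compared with wild type (WT) larvae across all measured genes, to ask what the loss of this Keap1 paralog by itself does to the whole-larva transcriptome. The comparison rested on the 4 crkeap1b and 4 WT pools as the sample titles assign them, 8 of the 32 pools in the series. Each pool held 10 intact zebrafish larvae collected at 7 dpf (days after fertilization). WT larvae carried no edit. crkeap1b larvae had been injected at the one-cell stage with Cas9 protein and a guide pair against keap1b. Cells of such first-generation crispants carry different edits or none. Larvae edited in the other paralog (crkeap1a, 4 pools) or in both (crkeap1a/b, 4 pools) were made in the same way and are used only where crkeap1b larvae were set against them. RNA 3′ ends were counted with the QuantSeq kit, in which each read stands for the end of a polyadenylated transcript. Clutch siblings served as controls, but which pools shared a clutch is not stated, and the labels name no batch. P-values therefore measure the spread between these pools only.

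Keap1 is the adaptor through which a Cullin 3 ubiquitin ligase marks the transcription factor Nrf2 for degradation. Electrophiles and oxidants modify cysteines of Keap1, Nrf2 then accumulates, pairs with small Maf proteins and binds antioxidant response elements in genes for glutathione synthesis, conjugation, NADPH supply and iron handling. Zebrafish carry a pair of Keap1 genes, keap1a and keap1b, and the Nrf2 gene measured here is nfe2l2a. In mammals the liver, the gut and barrier epithelia show much of the response to loss of Keap1.

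Between 3982557 and 4375959 reads were counted in WT and between 3965617 and 4102274 in crkeap1b pools. Values are CPM, the counts of a gene relative to the counts of its pool in rows with a gene ID, scaled by trimmed mean of M-values (TMM). Wherever 4 values are given for a group they are pools 1 to 4 in that order. Log2 differences are given ± SE, with positive values where crkeap1b larvae were higher, and adjusted p-values are from limma-voom with Benjamini-Hochberg adjustment over all tested genes. The crkeap1b pools differed from each other far more than the WT pools. The pooled SD of log2 CPM was 0.338 in WT and 0.521 in crkeap1b larvae, and on the first principal component (51.8% of the variance of the 8 pools) crkeap1b pools lay at 19.6, -21.1, 41.1 and 71.2, with WT between -31.8 and -22.6. Pool 2 thus lay beside the WT pools and pool 4 farthest from them. The 100 most abundant genes took 33.0% to 36.1% of the counts assigned to genes in WT pools and 43.8%, 34.9%, 46.4% and 50.3% in crkeap1b pools (exact permutation test, two-sided, p 0.0571, adjusted over 2 measures 0.0571). Fewer genes had a count in crkeap1b (15012 to 15550) than in WT pools (15605 to 15669), the smallest p an exact test of 4 against 4 allows (0.0286, adjusted 0.0571). The TMM factors, which offset such a shift, were 1.05 to 1.14 in WT and 0.844, 1.09, 0.757 and 0.645 in crkeap1b pools. All pools were kept in their labelled groups. Counts without crkeap1b pool 2 and without each other pool are given beside the main groups of genes. Replicates of a group differed beyond sampling noise, so none was a duplicate. Because whole larvae were measured, a change in the number of cells of a type and a change in RNA per cell cannot be told apart.

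The transcripts of the edited gene and of its partners were examined first. QuantSeq counts edited and unedited transcripts alike, so abundance is no measure of editing. In WT and crkeap1b larvae keap1b was measured at 27.5, 34.4, 32.7 and 29.6 CPM and 30.4, 16.8, 32.2 and 26.1 CPM, respectively. The groups overlapped and the difference did not pass the threshold of 0.05 (log2 difference -0.28 ± 0.23 at a limma-voom adjusted p of 0.443). Its lowest value was in crkeap1b pool 2, and without this pool the log2 difference was -0.06. The paralog keap1a was at 15.5, 13.6, 18.2 and 15.0 CPM in WT pools and at 18.1, 22.3, 23.7 and 28.5 CPM in crkeap1b pools, with pool 1 of the crispants within the WT range (log2 difference 0.55 ± 0.22, adjusted p 0.136). For nfe2l2a the values were 362, 479, 366 and 381 CPM in WT and 282, 320.5, 267 and 289.8 CPM in crkeap1b pools. Every crkeap1b pool was below every WT pool, although the difference did not pass the threshold (log2 difference -0.45 ± 0.18, adjusted p 0.131). Without crkeap1b pool 2 it passed, at -0.49 with an adjusted p of 0.0254, in a fit where 3301 of 12181 genes did. Of the 14 tested Keap1-Nrf2 regulators, a list that holds the small Maf, Cullin 3 and Bach1 genes, none was called, and their median log2 difference was -0.30. Among them sqstm1, which encodes the autophagy receptor p62, was at 204 ± 68.8 CPM in WT and 253 ± 53.01 CPM in crkeap1b larvae (SD, n = 4; log2 difference 0.34 ± 0.23, adjusted p 0.363).

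Across the transcriptome, 472 of 11893 tested genes (3.97%) differed between crkeap1b and WT larvae at a limma-voom adjusted p under 0.05, 316 higher (2.66%) and 156 lower (1.31%) in crkeap1b larvae. An unadjusted p under 0.05 was reached by 3130 genes. The pools of the groups did not overlap for 1537 of the 11893 genes (12.9%), and 405 of the 472 called genes were among these. Higher calls lay at the abundant end. Of the 1190 genes in the top 10% by mean abundance, 124 were called higher and 30 lower. Their median log2 difference was 0.22, against -0.01 over all genes. The excess of higher calls depended on the scaling. On library totals without TMM, an alternative chosen after the data were seen, the median over all genes was -0.44, with 163 called higher and 1531 lower. All 472 called genes kept their sign between these scalings. Changes below are therefore relative to the median gene, and where a median given for a list changes sign on library totals both values are given.

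**Figure D1:**
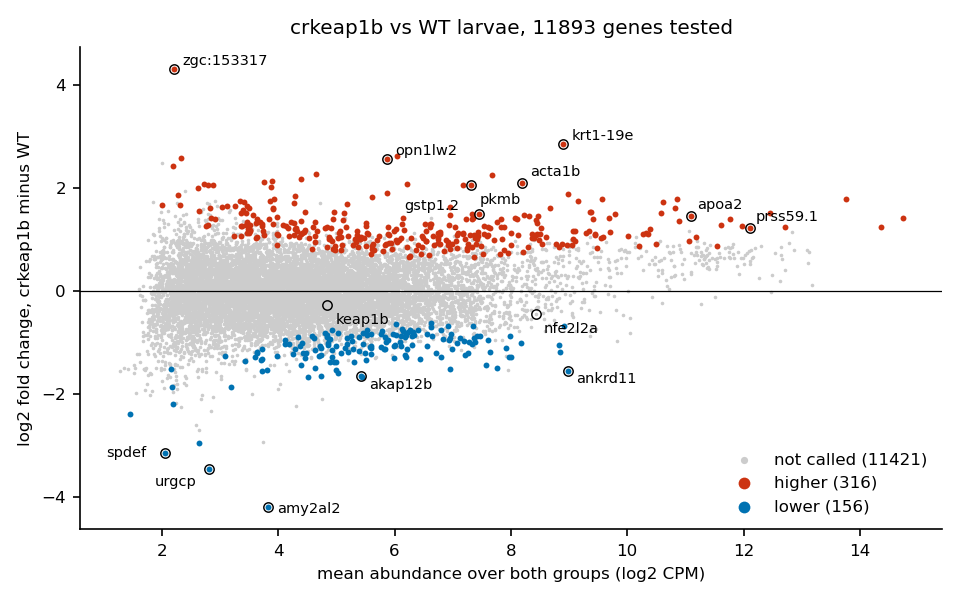
Each point is 1 of 11893 tested genes, with the mean abundance over both groups on the x axis (log2 CPM) and the log2 difference of crkeap1b minus WT on the y axis. Of the 316 genes called higher (red), 124 lie in the top 10% by mean abundance, against 30 of the 156 called lower (blue). Neither keap1b nor nfe2l2a (circled) was called.

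How many genes were called turned on crkeap1b pool 2. This pool was the nearest of the 4 to the WT mean for 270 of the 316 higher genes (85.4%) and 139 of the 156 lower genes (89.1%), against 49.1% of all tested genes. Pool 4 was the farthest for 243 (76.9%) and 115 (73.7%), against 51.0% of all tested genes. Over the called higher genes, the median log2 difference from WT was 1.13, 0.58, 1.304 and 1.59 in the 4 pools, and over the called lower genes it was -0.99, -0.43, -1.21 and -1.62. Without pool 2, 3301 of 12181 tested genes were called, 1793 higher and 1508 lower, and all 472 were among them. Pool 2 was singled out from these same data as the nearest to WT. Counts of list members without pool 2 are to be read beside this share of all genes. Leaving out any other pool cut the count, to 54, 38 and 131 without crkeap1b pool 1, 3 and 4, and to 57 to 77 without single WT pools. The direction of all 472 genes was the same in each of these 8 fits. For the 405 without overlap between the groups, leaving out 1 pool could hardly reverse it, so this is little test of them. Only 37 were called in every one of them.

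**Figure D2:**
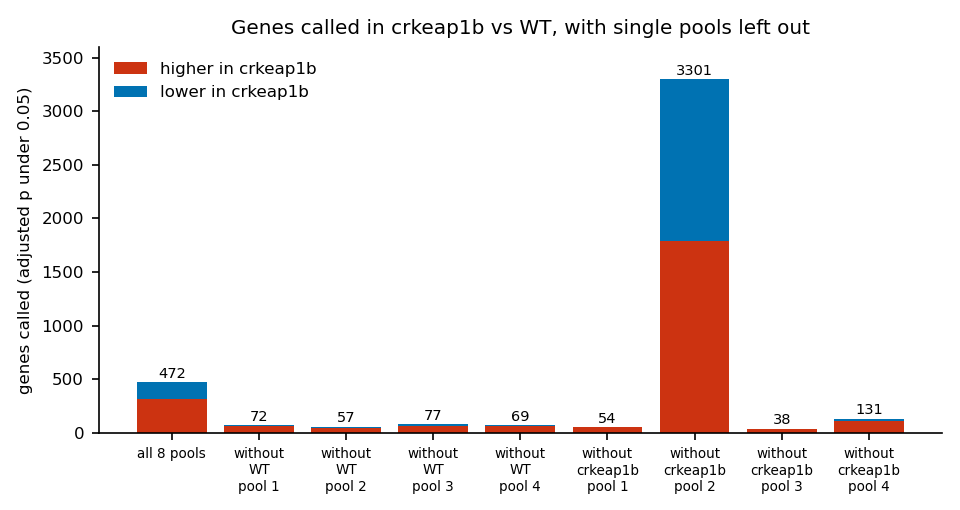
Bars give the number of genes called at an adjusted p under 0.05 in the fit of all 8 pools and in the 8 fits that each leave out 1 pool, split by direction. The count is 472 with all pools, 3301 without crkeap1b pool 2, and 38 to 131 without any other pool.

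Those 37 genes include genes of skeletal matrix, fast muscle, cone photoreceptors and epidermis. Several of these changes were also seen in crkeap1a pools, which were not tested against WT here. In crkeap1a pools krt1-19e was at 299.8, 329.5, 681.6 and 332.5 CPM and acta1b at 204, 291, 209 and 439 CPM. There col9a3 was at 22.3, 25.2, 28.2 and 37.2 CPM and opn1mw2 at 18.7, 26.8, 28.7 and 19.3 CPM. Each of these genes was above every WT pool. akap12b, at 33.7, 25.6, 26.4 and 31.1 CPM, was below every WT pool. For zgc:153317 crkeap1a and WT pools overlapped. The list of 37 holds 6 collagen genes (col1a1b, col1a2, col9a1a, col9a2, col9a3, col10a1a) and the muscle genes acta1b, tnnt3a and casq1b. It also holds the cone genes opn1lw2, opn1mw2 and gngt2b, the keratin krt1-19e and the glutathione S-transferase gstp1.2. Among the genes on it that fell are akap12b and loxl1. Further names on it, given after their values were seen, are myl1, mybphb, myom2b, ampd1 and aldoab of muscle, postnb and sparc of the matrix, icn2 of the skin, and gatm, which makes the precursor of creatine. The gene with the smallest p was krt1-19e, a type I keratin, at 123, 66.3, 111 and 168 CPM in WT and 907, 449.8, 876 and 1111 CPM in crkeap1b pools. Even the lowest crispant pool was well above the highest WT pool (log2 difference 2.85 ± 0.30, adjusted p 6.61e-04). The skeletal actin gene acta1b was at 137, 93.4, 119 and 82.3 CPM in WT and 483, 261, 471 and 681 CPM in crkeap1b pools (log2 difference 2.099 ± 0.26 at a limma-voom adjusted p of 0.00193). Crispant pool 2 was again lowest and pool 4 highest for pkmb, a pyruvate kinase of glycolysis, at 48.5, 54.6, 73.7 and 62.2 CPM in WT and 234, 145, 244 and 417 CPM in crkeap1b (log2 difference 2.04 ± 0.26, adjusted p 0.00193).

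The largest rise of all was that of zgc:153317, which had 5 counts over the 4 WT pools and was at 12.8, 5.08, 7.55 and 9.70 CPM in crkeap1b pools (log2 difference 4.31 ± 0.62 at a limma-voom adjusted p of 0.00462). It was at 1.37, 2.52, 0.925 and 3.79 CPM in crkeap1a pools. In crkeap1a/b pools it was far higher, at 144, 162, 153 and 108 CPM (log2 difference of crkeap1b against crkeap1a/b -4.08 ± 0.29, limma-voom adjusted p 2.72e-07). The mitochondrial ADP/ATP carrier slc25a4 followed krt1-19e, at 28.9, 27.1, 1.68 and 30.6 CPM in WT and 40.4, 61.7, 108 and 232 CPM in crkeap1b, and here WT pool 3 stood far below the other WT pools (log2 difference 2.62 ± 0.70, adjusted p 0.0493, called in 1 of the 8 fits that leave out a pool). Among the other large rises were otos, the inner ear gene for otospiralin (5.24 ± 1.67 CPM in WT and 24.5 ± 8.86 CPM in crkeap1b, log2 difference 2.12 ± 0.37, adjusted p 0.00853), and egfl6, a secreted matrix protein with EGF repeats (4.92 ± 0.999 CPM in WT and 22.3 ± 5.09 CPM in crkeap1b, log2 difference 2.11 ± 0.30, adjusted p 0.00462; SD, n = 4). Pool 2 was the lowest crispant pool in both, and no crispant pool overlapped WT. LOC100000365, which carries no further annotation here, was at 1.37 ± 0.526 CPM in WT and 7.76 ± 0.639 CPM in crkeap1b (log2 difference 2.43 ± 0.45, adjusted p 0.0123).

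The largest falls were in genes of modest abundance. A row for a pancreatic amylase, amy2al2, was at 28.9, 35.9, 11.11 and 33.0 CPM in WT and at 1.43, 0.391, 1.01 and 2.43 CPM in crkeap1b pools (log2 difference -4.20 ± 0.69 at a limma-voom adjusted p of 0.00628). All 4 crispant pools were near the detection floor, since 3 counts correspond to 1.17 to 1.82 CPM in them, and crkeap1a pools were at 0, 0, 1.39 and 0 CPM. The urgcp row was at 12.03, 21.2, 6.73 and 11.6 CPM in WT and 0.951, 1.95, 1.51 and 0 CPM in crkeap1b (log2 difference -3.47 ± 0.63, adjusted p 0.0119). gvin1l2, named for the very large interferon-inducible GTPases, was at 7.90, 8.42, 7.41 and 6.802 CPM in WT and 2.85, 1.17, 1.01 and 1.21 CPM in crkeap1b (log2 difference -2.20 ± 0.44, adjusted p 0.0197). Without each of several single pools the calls of urgcp and gvin1l2 were lost (called in 3 and 1 of 8 fits). akap12b, an anchor of protein kinase A, was lower in every crkeap1b pool, at 66.0, 65.2, 45.1 and 86.4 CPM in WT and 22.4, 26.6, 17.1 and 14.6 CPM in crkeap1b (log2 difference -1.66 ± 0.25, adjusted p 0.00504), and loxl1, an enzyme that crosslinks elastin, at 45.4, 47.6, 49.2 and 47.3 CPM in WT and 15.7, 27.0, 11.6 and 12.1 CPM in crkeap1b (log2 difference -1.54 ± 0.25, adjusted p 0.00542). Both were called with each pool left out.

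For other falls crkeap1b pool 2 was the crispant pool nearest to WT. The chromatin regulator ankrd11 was at 608, 676, 769 and 815 CPM in WT and 283, 594, 212 and 101 CPM in crkeap1b (log2 difference -1.55 ± 0.39 at a limma-voom adjusted p of 0.0447). Its pool 2 value bordered on the lowest WT pool, whereas pool 4 was several times lower. The ubiquitin ligase gene rnf213a had the same shape, at 45.7, 39.9, 31.98 and 41.5 CPM in WT and 9.51, 27.7, 8.06 and 9.09 CPM in crkeap1b (log2 difference -1.65 ± 0.32, adjusted p 0.0155). So had acer2, which encodes a Golgi ceramidase, at 30.9, 25.3, 42.1 and 39.8 CPM in WT and 7.13, 23.8, 8.06 and 6.67 CPM in crkeap1b (log2 difference -1.68 ± 0.35, adjusted p 0.0221). In myh14, a myosin heavy chain (50.2, 42.5, 41.1 and 51.4 CPM in WT and 25.7, 36.7, 7.05 and 5.46 CPM in crkeap1b; log2 difference -1.60 ± 0.41, adjusted p 0.045), pools 3 and 4 were lowest. In ino80da, a subunit of a chromatin remodeler (19.9, 18.7, 18.5 and 19.4 CPM in WT and 8.56, 10.9, 8.06 and 1.21 CPM in crkeap1b; log2 difference -1.55 ± 0.41, adjusted p 0.0493), and in LOC100331214 (18.6, 12.8, 14.5 and 10.9 CPM in WT and 3.80, 6.64, 5.54 and 0.606 CPM in crkeap1b; log2 difference -1.88 ± 0.48, adjusted p 0.0449) pool 4 stood lowest. Of the 8 fits with a pool left out, myh14, ino80da, ankrd11 and LOC100331214 were called only in that without crkeap1b pool 2.

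**Figure D3:**
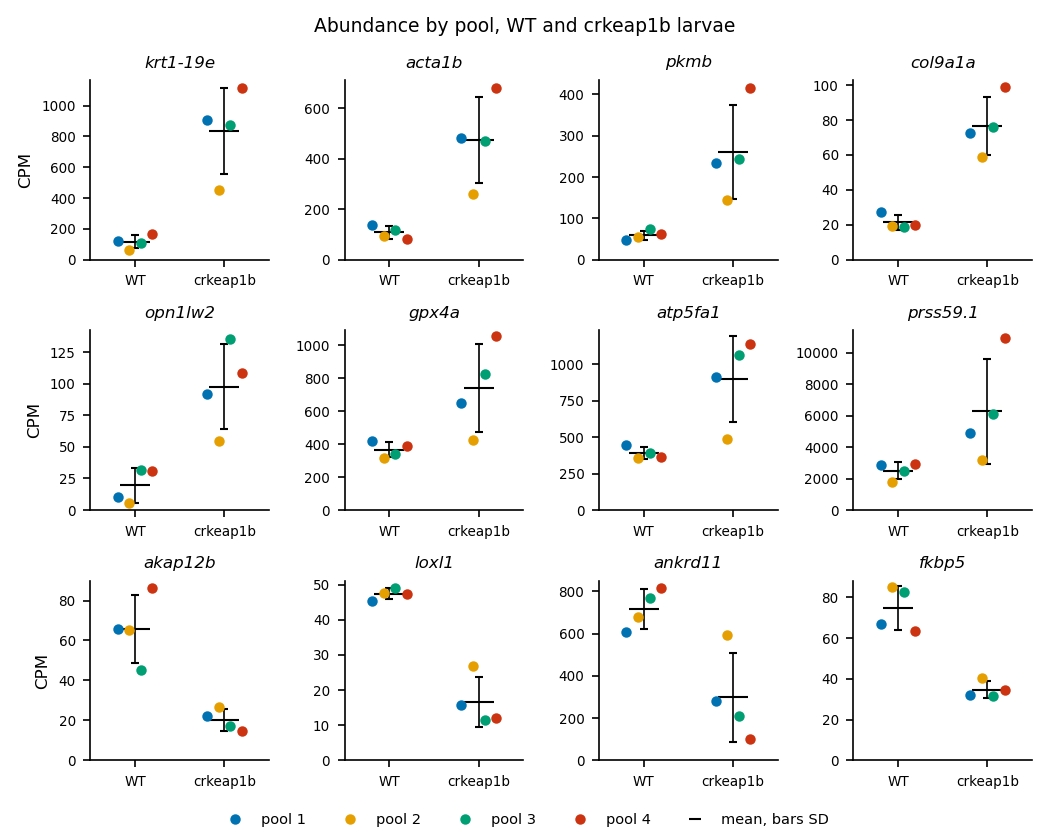
CPM of 12 genes in the 4 WT and 4 crkeap1b pools (points coloured by pool number, black bars mean ± SD, y axes from 0). In the rising genes pool 2 is the lowest crispant pool and in ankrd11 the highest, at 594 CPM against 101 to 283 CPM in the other crispant pools, while all 4 crispant pools lie apart from WT for akap12b, loxl1 and fkbp5.

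Genes under Nrf2 control were then described by function. The Nrf2 target lists had 82 tested genes between them, of which 8 were called higher and none lower, with a median log2 difference of 0.61. This share, 8 of 82, compares with 2.66% of all genes called higher. Without crkeap1b pool 2, 40 of 83 were called higher and 6 lower, and without any other single pool 1 was called. Of the targets the study marks, none was called. The subunits of glutamate-cysteine ligase, which starts glutathione synthesis, were at 59.8, 82.8, 53.5 and 63.6 CPM in WT and 79.4, 57.4, 76.0 and 66.1 CPM in crkeap1b for gclc (log2 difference 0.11 ± 0.19 at a limma-voom adjusted p of 0.733) and at 4.12, 2.56, 6.73 and 6.12 CPM in WT and 12.4, 6.25, 10.6 and 6.67 CPM in crkeap1b for gclm (log2 difference 0.88 ± 0.38, adjusted p 0.156). Crispant pools of both overlapped WT. gsr, encoding glutathione reductase, was at 3.78 ± 2.44 CPM in WT and 6.56 ± 1.17 CPM in crkeap1b larvae (SD, n = 4; log2 difference 1.04 ± 0.47, adjusted p 0.172).

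The quinone reductase gene nqo1 showed no detected difference, at 99.7, 134, 109.8 and 88.4 CPM in WT and 78.9, 86.8, 108 and 105 CPM in crkeap1b (log2 difference -0.19 ± 0.19, adjusted p 0.547, 95% confidence interval -0.58 to 0.21). For prdx1, a peroxiredoxin, WT pools were at 37.1, 57.5, 20.9 and 34.7 CPM and crkeap1b pools at 78.0, 45.3, 65.0 and 81.9 CPM (log2 difference 0.90 ± 0.27, adjusted p 0.0675). Here crispant pool 2 fell below WT pool 2. Without crispant pool 2 the gene passed, at a log2 difference of 1.08 (adjusted p 0.00264), in a fit where 3301 of 12181 genes did. pgd, which encodes an NADPH-producing enzyme of the pentose phosphate pathway, had 1, 8, 0 and 5 counts in WT pools and no count in any crkeap1b pool. It did not pass the count filter and was not tested.

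The 8 targets that rose act mainly in conjugation and peroxide removal. Of 14 tested glutathione S-transferases, which couple glutathione to electrophiles, 4 rose and none fell, and the list median was 0.79. gstp1.2 led them, at 91.4, 91.9, 99.0 and 73.5 CPM in WT and 341, 148, 229 and 327 CPM in crkeap1b (log2 difference 1.49 ± 0.24 at a limma-voom adjusted p of 0.00542), and was called with each pool left out. Every crispant pool was above every WT pool. gsto2, of the omega class, was at 9.86 ± 1.19 CPM in WT and 25.5 ± 8.53 CPM in crkeap1b (log2 difference 1.27 ± 0.28, adjusted p 0.0283). The microsomal enzyme mgst3b was at 42.6 ± 9.57 CPM in WT and 101 ± 35.7 CPM in crkeap1b (log2 difference 1.18 ± 0.27, adjusted p 0.0335) and its relative mgst3a at 25.6 ± 7.18 CPM in WT and 65.7 ± 26.6 CPM in crkeap1b (log2 difference 1.26 ± 0.30, adjusted p 0.0391; SD, n = 4). In both, crispant pool 2 lay within the WT range. Among the 11 thioredoxin and peroxiredoxin genes prdx2 rose, at 540.3, 441, 459 and 553 CPM in WT and 1020.1, 569.8, 1303 and 1769 CPM in crkeap1b (log2 difference 1.14 ± 0.28, adjusted p 0.0409). Among the 10 genes of glutathione synthesis and recycling it was gpx4a, which protects membrane lipids from peroxidation, at 421, 317, 339 and 387 CPM in WT and 647, 423, 827 and 1053 CPM in crkeap1b (log2 difference 0.96 ± 0.25, adjusted p 0.0457). In both genes every crispant pool was above WT, pool 2 by the smallest margin.

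A ferritin heavy chain-like gene, fthl29, rose from 0.687, 0.366, 1.68 and 3.06 CPM in WT to 8.08, 5.08, 6.04 and 15.2 CPM in crkeap1b pools (log2 difference 2.57 ± 0.59 at a limma-voom adjusted p of 0.0335), the single call among 10 ferritin and heme oxygenase genes, whose median was 0.86. ugt1b5, a glucuronosyltransferase, was at 2.41, 4.40, 3.70 and 5.44 CPM in WT and 8.56, 8.21, 11.08 and 10.31 CPM in crkeap1b (log2 difference 1.26 ± 0.34, adjusted p 0.0498). None of the 18 quinone and carbonyl reductases and none of the 4 tested NADPH genes was called. Of the latter, the transketolases tkta and tktb were at 235 ± 14.5 CPM in WT and 166 ± 33.5 CPM in crkeap1b larvae (log2 difference -0.52 ± 0.18, adjusted p 0.104) and at 94.4 ± 22.5 CPM in WT and 137 ± 36.7 CPM in crkeap1b larvae (log2 difference 0.53 ± 0.24, adjusted p 0.177; SD, n = 4). Apart from gstp1.2, each of these calls held in only 1 of the 8 fits with a pool left out, that without crkeap1b pool 2. Outside the Nrf2 lists, sod1, the cytosolic superoxide dismutase, rose as well (133, 116, 109 and 102 CPM in WT and 246, 149, 293 and 333 CPM in crkeap1b; log2 difference 1.103 ± 0.23, adjusted p 0.0221).

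**Figure D4:**
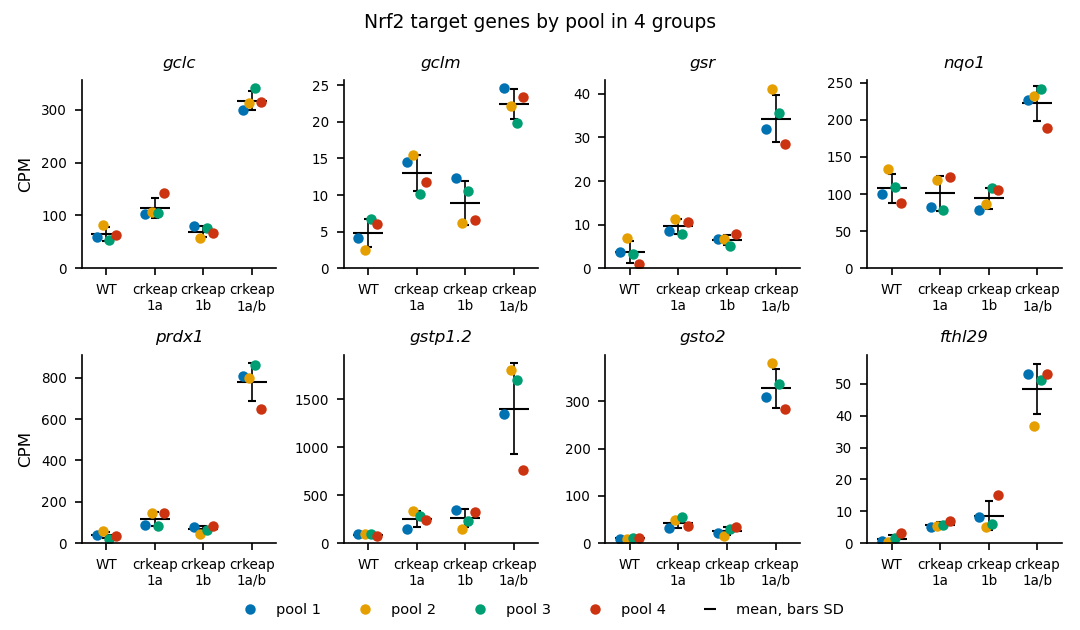
CPM of 8 Nrf2 target genes in WT, crkeap1a, crkeap1b and crkeap1a/b pools (points coloured by pool number, black bars mean ± SD, y axes from 0). crkeap1b pools overlap WT pools for gclc, gclm, gsr, nqo1 and prdx1, lie above every WT pool for gstp1.2, gsto2 and fthl29, and below every crkeap1a/b pool in all 8 genes.

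Many muscle genes rose. Of 45 tested contractile and calcium-handling genes of muscle, 21 rose and none fell, against 2.66% of all genes called higher. A positive log2 difference was seen in 37 of the 45 (list median 0.78, 0.36 on library totals). The summed abundance of the 48 genes with a row was 56622 to 65739 CPM in WT and 92321 to 204893 CPM in crkeap1b pools. In crkeap1a pools it was 87403 to 141372 CPM, also above every WT pool. Relative to the WT mean, the average log2 abundance was 0.65, 0.51, 0.71 and 0.91 in the 4 crispant pools, each above the WT range of -0.12 to 0.07. Besides acta1b, the calcium store protein casq1b (21.7, 10.99, 19.2 and 15.6 CPM in WT and 56.1, 37.9, 48.9 and 80.6 CPM in crkeap1b; log2 difference 1.69 ± 0.27 at a limma-voom adjusted p of 0.00542) and the fast troponin tnnt3a (77.2 ± 11.6 CPM in WT and 185 ± 53.1 CPM in crkeap1b, SD, n = 4; log2 difference 1.24 ± 0.21, adjusted p 0.00724) were called with each pool left out, and the Z-disc actinin actn3b in 7 of the 8 fits (161, 159, 194 and 191 CPM in crkeap1b; log2 difference 0.97 ± 0.16, adjusted p 0.00823). Without crkeap1b pool 2 the count was 30 higher and 3 lower of 45, and without any other single pool 3 to 16, the fewest without pool 3. The fit without pool 2 called 3301 of 12181 genes.

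Subunits of the mitochondrial respiratory chain and ATP synthase were also among the genes that rose. Of 71 tested genes, 24 rose and none fell, against 2.66% of all genes called higher. All 71 had a positive log2 difference (median 0.89, 0.46 on library totals). The list average was 0.82, 0.05, 1.097 and 1.47 in crispant pools 1 to 4 relative to the WT mean, with pools 1, 3 and 4 above and pool 2 inside the WT range of -0.09 to 0.11. atp5fa1, the alpha subunit of ATP synthase, was at 448, 357, 392 and 366 CPM in WT and 913, 485, 1065 and 1138 CPM in crkeap1b (log2 difference 1.15 ± 0.25 at a limma-voom adjusted p of 0.0264). cox5ab of cytochrome c oxidase also rose (114 ± 8.24 CPM in WT and 319 ± 159 CPM in crkeap1b; log2 difference 1.34 ± 0.30, adjusted p 0.0283). So did the complex I subunit ndufs6 (25.1 ± 6.73 CPM in WT and 66.5 ± 29.6 CPM in crkeap1b; log2 difference 1.31 ± 0.30, adjusted p 0.0335; SD, n = 4). Without pool 2, 69 of 71 were called, where 3301 of 12181 genes were called in all, and without any other single pool 0 to 1.

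Ribosomal protein genes moved with the same pools. All 65 tested genes had a positive log2 difference (median 0.69, 0.25 on library totals), but only 2 were called (3.08%, against 3.97% of all genes). rpl22l1, a paralog of a large subunit protein, was at 313, 305, 299 and 373 CPM in WT and 508, 409.6, 626 and 814 CPM in crkeap1b (log2 difference 0.84 ± 0.22 at a limma-voom adjusted p of 0.0457). The list average was 0.64, -0.15, 0.93 and 1.26 in crkeap1b pools, with pool 2 below the WT range of -0.12 to 0.15. Their summed abundance was 122227 to 152016 CPM in WT and 120530.0 to 325119 CPM in crkeap1b pools. Without pool 2, 64 of 65 were called, where 3301 of 12181 genes were called in all, and without any other pool none. The order of crispant pools in the respiratory, ribosomal and proteasome lists, 2 lowest, then 1, 3 and 4, was that of the share taken by the 100 most abundant genes. Muscle, fatty acid oxidation, glutathione S-transferase, thioredoxin, glutathione, pancreas, liver, enterocyte, lens and S100 lists had the same order. The collagen, keratin, phototransduction, ferritin and erythroid lists did not. Abundant genes of a list can themselves be part of that share. The part of this library measure in the results for all these lists was not tested. None of 35 proteasome genes was called (median 0.37, but -0.05 on library totals), with psmb4 at 353 ± 51.7 CPM in WT and 426 ± 121 CPM in crkeap1b larvae (log2 difference 0.25 ± 0.22, adjusted p 0.488). Without pool 2, 20 higher and 0 lower of 35 proteasome genes were called, and without any other pool none. In fatty acid oxidation 3 of 31 genes rose (median 0.56). These were the carnitine carrier slc25a20 (20.3 ± 1.59 CPM in WT and 51.9 ± 18.0 CPM in crkeap1b, SD, n = 4; log2 difference 1.24 ± 0.27, adjusted p 0.0283), the electron carrier subunit etfa (log2 difference 1.01 ± 0.25, adjusted p 0.0408) and the dehydrogenase acadm (log2 difference 0.88 ± 0.22, adjusted p 0.0449). These 3 calls held only without pool 2 among the fits with a pool left out.

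**Figure D5:**
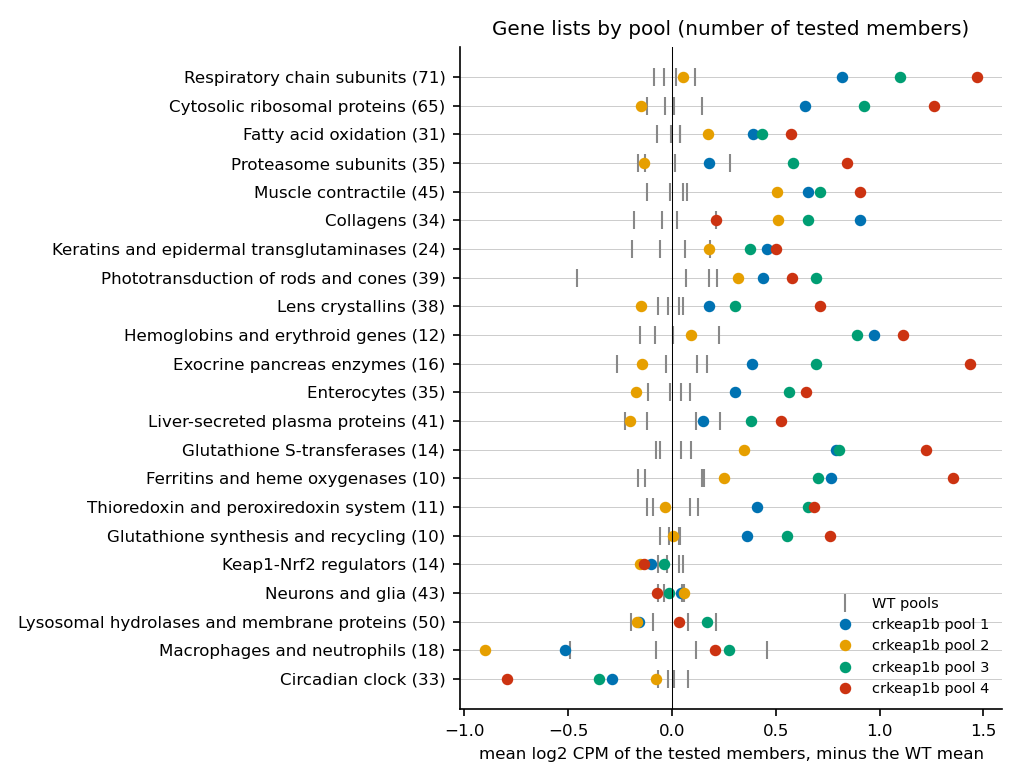
For 22 gene lists, the x axis gives the mean log2 CPM of the tested members in a pool minus the WT mean (grey ticks WT pools, coloured points crkeap1b pools 1 to 4, number of tested members in brackets). Pool 2 lies within or near the WT pools in most lists and pool 4 is the highest in most. All 4 crispant pools exceed WT in muscle, glutathione S-transferases, ferritins and heme oxygenases, phototransduction and fatty acid oxidation. They do so narrowly in collagens, where pool 4 is the lowest crispant pool, and all 4 lie below WT in the clock list.

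Collagen genes of cartilage, bone and skin did not follow that pool order as a list. Of 34 tested collagens, 10 rose and none fell (median 0.35, but -0.08 on library totals, where 8 were called higher and none lower). The share called higher was 2.66% over all genes. The list average was 0.90, 0.51, 0.66 and 0.21 in the crispant pools, so that pool 4, the farthest from WT in most other groups, was the lowest here, although not in each gene. The cartilage collagen col9a1a was at 27.5, 19.4, 18.5 and 20.1 CPM in WT and 72.3, 58.6, 76.0 and 98.8 CPM in crkeap1b (log2 difference 1.82 ± 0.21 at a limma-voom adjusted p of 0.00176), and its partners col9a2 (89.4 ± 15.4 CPM in WT and 234 ± 49.0 CPM in crkeap1b; log2 difference 1.38 ± 0.20, adjusted p 0.00462) and col9a3 (8.31 ± 4.79 CPM in WT and 33.9 ± 6.13 CPM in crkeap1b; log2 difference 2.17 ± 0.34, adjusted p 0.00542) rose with it. The bone and skin collagen genes col1a1b (168 ± 27.4 CPM in WT and 466 ± 129.8 CPM in crkeap1b; log2 difference 1.45 ± 0.21, adjusted p 0.00462) and col1a2 (186 ± 21.6 CPM in WT and 524 ± 162 CPM in crkeap1b; log2 difference 1.45 ± 0.22, adjusted p 0.00462) rose to a similar extent. col10a1a, a collagen of hypertrophic cartilage and early bone, was at 6.53, 5.49, 11.4 and 8.84 CPM in WT and 45.2, 19.9, 45.8 and 57.0 CPM in crkeap1b (log2 difference 2.27 ± 0.36, adjusted p 0.00542). The cartilage proteoglycan epyc was among the 6 genes with the smallest p, at 91.1, 73.3, 83.5 and 87.1 CPM in WT and 279, 188, 202 and 289.8 CPM in crkeap1b (log2 difference 1.498 ± 0.19, adjusted p 0.00193), and the collagen chaperone serpinh1b rose too (10.33 ± 2.27 CPM in WT and 26.9 ± 8.77 CPM in crkeap1b; log2 difference 1.33 ± 0.27, adjusted p 0.0197; SD, n = 4). Between 6 and 14 collagens were called with single pools left out, the narrowest range of the 5 lists with at least 10 calls. The 14 were called without crkeap1b pool 2, in a fit where 3301 of 12181 genes were. serpinh1b was also the single call among 20 heat shock genes.

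In the eye, 10 of 39 phototransduction genes rose and none fell, against 2.66% of all genes called higher. The list median was 0.46 (0.04 on library totals). The red cone opsin opn1lw2 was at 10.31, 5.49, 31.98 and 31.3 CPM in WT and 92.3, 54.7, 136 and 109 CPM in crkeap1b (log2 difference 2.55 ± 0.43 at a limma-voom adjusted p of 0.00823). The green cone opsin opn1mw1 was at 54.3, 26.4, 143 and 99.99 CPM in WT and 329, 203, 351 and 429 CPM in crkeap1b (log2 difference 2.24 ± 0.39, adjusted p 0.00947), and its copy opn1mw2 at 7.90, 6.96, 11.8 and 7.14 CPM in WT and 34.2, 23.1, 33.2 and 32.1 CPM in crkeap1b (log2 difference 1.84 ± 0.26, adjusted p 0.00436). The cone transducin subunit gngt2b rose with them (341 ± 96.3 CPM in WT and 1184 ± 440.2 CPM in crkeap1b; log2 difference 1.78 ± 0.29, adjusted p 0.00542; SD, n = 4). WT pools themselves spanned a wide range for opn1lw2 and opn1mw1, with pools 1 and 2 lowest, and the WT list average ran from -0.46 to 0.21. All 4 crispant pools were above every WT pool for these 4 genes. The count was 17 higher and 1 lower of 39 without crkeap1b pool 2 and 3 to 6 without any other pool. The fit without pool 2 called 3301 of 12181 genes. Lens crystallins gave 1 higher call, crygm2d10 (58.4 ± 26.7 CPM in WT and 191 ± 99.9 CPM in crkeap1b; log2 difference 1.63 ± 0.37, adjusted p 0.0312), and 1 lower, cryba1l2 (79.2 ± 2.87 CPM in WT and 50.8 ± 6.86 CPM in crkeap1b; log2 difference -0.64 ± 0.17, adjusted p 0.0498; SD, n = 4), among 38 genes. The share of crystallins called, 5.26%, was near the 3.97% of all genes. Without pool 2, 23 higher and 5 lower of 39 were called.

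Epidermal genes moved in both directions. Of all genes 2.66% were called higher and 1.31% lower. Of 24 keratin, transglutaminase and cell envelope genes, 9 rose and 1 fell (median 0.54, 0.12 on library totals). The one that fell was evpla, which encodes the envelope protein envoplakin and was named after its values were seen (mean 62.7 CPM in WT and 24.7 CPM in crkeap1b, log2 difference -1.67, adjusted p 0.0329). Beside krt1-19e, the related keratin krt1-19d (83.5 ± 9.42 CPM in WT and 189 ± 62.3 CPM in crkeap1b; log2 difference 1.12 ± 0.23 at a limma-voom adjusted p of 0.0219) and the keratin cyt1l (672 ± 156 CPM in WT and 1396 ± 274 CPM in crkeap1b; log2 difference 1.07 ± 0.22, adjusted p 0.0229; SD, n = 4) rose. The transglutaminase tgm1l3, of a family that crosslinks skin proteins, was at 11.7, 12.1, 11.8 and 10.204 CPM in WT and 24.7, 28.9, 44.8 and 23.0 CPM in crkeap1b (log2 difference 1.36 ± 0.25, adjusted p 0.0123) and tgm1l6 at 9.28, 8.42, 5.39 and 4.76 CPM in WT and 21.4, 10.9, 39.8 and 20.6 CPM in crkeap1b (log2 difference 1.601 ± 0.38, adjusted p 0.0387). Without pool 2, 12 of the 24 were called higher and 3 lower, and 1 to 4 were called without any other pool. The fit without pool 2 called 3301 of 12181 genes. krt4, an abundant skin keratin, was spread widely among crispant pools, at 342, 138, 243 and 277 CPM in WT and 682, 256, 9.07 and 24.3 CPM in crkeap1b. Pool 1 was above every WT pool and pools 3 and 4 below all of them, and the group difference was not called (log2 difference -1.54 ± 0.93, adjusted p 0.301). spdef, a transcription factor of goblet cells, was called lower, at 6.53, 7.33, 7.07 and 6.802 CPM in WT and 0, 4.30, 0 and 1.21 CPM in crkeap1b (log2 difference -3.15 ± 0.65, adjusted p 0.0223), a call lost in 6 of 8 fits with a pool left out. None of 13 ionocyte genes was called.

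Digestive organ genes were measured next, since the liver and gut respond to Nrf2. Exocrine pancreas enzymes had a median of 0.85 (0.41 on library totals), with 3 rises and the fall of amy2al2 among 16 tested genes. Over all genes 2.66% were called higher and 1.31% lower. The trypsin prss59.1 was at 2849.8, 1768, 2469.8 and 2944 CPM in WT and 4915, 3182, 6071 and 10955 CPM in crkeap1b (log2 difference 1.23 ± 0.32 at a limma-voom adjusted p of 0.0475), the elastase ela2l at 604, 429, 1428 and 826 CPM in WT and 2280.4, 1104, 3088 and 4986 CPM in crkeap1b (log2 difference 1.77 ± 0.41, adjusted p 0.0333), and sycn.2, a granule protein, at 114 ± 15.2 CPM in WT and 339 ± 223 CPM in crkeap1b (log2 difference 1.39 ± 0.32, adjusted p 0.0314; SD, n = 4). Pool 4 was the highest in both proteases, and the list average was 0.38, -0.14, 0.69 and 1.44 in the crispant pools. Among 41 liver-secreted proteins apoa2 and ahsg2 rose and none fell, a share near that of all genes (2.66% higher, 3.97% in either direction). apoa2, an apolipoprotein of high-density lipoprotein, was at 1241, 928, 1035 and 1279.8 CPM in WT and 2993, 1515, 3974 and 4599 CPM in crkeap1b (log2 difference 1.46 ± 0.30, adjusted p 0.0199), and ahsg2, a fetuin, at 21.7, 15.4, 25.3 and 25.8 CPM in WT and 33.8, 36.3, 40.8 and 51.5 CPM in crkeap1b (log2 difference 0.87 ± 0.22, adjusted p 0.0449; list median 0.30, but -0.13 on library totals). Of 35 enterocyte genes 4 rose (11.4%, median 0.37, but -0.04 on library totals). These were the fatty acid binder fabp1b.1 (357 ± 69.9 CPM in WT and 1003 ± 510.5 CPM in crkeap1b, SD, n = 4; log2 difference 1.39 ± 0.30, adjusted p 0.025), the apolipoproteins apoa1b (log2 difference 1.11 ± 0.27, adjusted p 0.042) and apoa4b.2 (log2 difference 1.12 ± 0.28, adjusted p 0.0433) and the chitinase chia.2 (log2 difference 0.89 ± 0.24, adjusted p 0.0498). Without pool 2 the counts were 14 higher and 1 lower of 16 for the pancreas and 18 higher and 3 lower of 41 for the liver. For enterocytes they were 15 higher and 0 lower of 35. Over all genes 3301 of 12181 were called in that fit. Without any other single pool at most 2, 1 and 1 genes of these lists were called.

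Drug-handling genes gave few calls, 6.67% of the cytochromes and 3.45% of the transporters, against 3.97% of all genes. Among 30 cytochromes P450 the intestinal and hepatic enzyme cyp3a65 (989.6 ± 118 CPM in WT and 1895 ± 478 CPM in crkeap1b; log2 difference 0.91 ± 0.23 at a limma-voom adjusted p of 0.0449) and cyp2y3 (29.6 ± 9.62 CPM in WT and 62.7 ± 11.9 CPM in crkeap1b; log2 difference 1.11 ± 0.24, adjusted p 0.0281) rose, and among 29 ABC transporters abcg2a (108 ± 15.4 CPM in WT and 197 ± 55.9 CPM in crkeap1b; log2 difference 0.83 ± 0.22, adjusted p 0.0478; SD, n = 4), an exporter of drugs and porphyrins. Without pool 2 the counts were 5 higher and 1 lower of 34 for the cytochromes and 3 higher and 4 lower of 30 for the transporters, and without any other pool at most 1. Over all genes 3301 of 12181 were called without pool 2, a larger share than in either list. In blood, 6 of 12 erythroid genes rose and none fell (median 1.11, 0.68 on library totals). The red cell anion exchanger slc4a1a was at 12.4, 22.7, 13.1 and 20.1 CPM in WT and 59.4, 32.8, 47.8 and 38.8 CPM in crkeap1b (log2 difference 1.399 ± 0.26, adjusted p 0.012). The embryonic and larval globins hbae1.3 (246, 325, 294 and 413 CPM in WT and 1065, 361, 1048 and 1545 CPM in crkeap1b; log2 difference 1.52 ± 0.33, adjusted p 0.0283), hbae1.1 (log2 difference 1.32 ± 0.30, adjusted p 0.0312) and hbbe2 (log2 difference 1.24 ± 0.32, adjusted p 0.0449) had pool 2 within the WT range. The count was 8 higher and 0 lower of 13 without pool 2 and 0 to 1 without any other pool.

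Falls without a rise were called in the lists for liver glucose, growth and pituitary hormones, the clock and stress, a few genes in each. By comparison, 1.31% of all genes were called lower. In the list of gluconeogenesis and liver glucose genes 3 of 23 fell and none rose (median -0.27). fkbp5, a glucocorticoid-induced regulator of the glucocorticoid receptor, was at 67.0, 85.0, 82.8 and 63.6 CPM in WT and 31.9, 40.6, 31.7 and 34.6 CPM in crkeap1b (log2 difference -1.09 ± 0.19 at a limma-voom adjusted p of 0.00901). All crispant pools were below all WT pools with little spread, and the call held in 6 of 8 fits with a pool left out. irs2b, which relays the insulin signal, was at 156, 189, 147 and 147 CPM in WT and 91.3, 109, 96.7 and 63.1 CPM in crkeap1b (log2 difference -0.84 ± 0.20, adjusted p 0.0357), and foxo1a, a transcription factor restrained by insulin, at 144, 153, 142 and 124 CPM in WT and 74.7, 123, 49.4 and 26.7 CPM in crkeap1b (log2 difference -1.22 ± 0.32, adjusted p 0.0493). In the clock list 2 of 33 fell (median -0.43), the nuclear receptor nr1d4a (18.6 ± 3.01 CPM in WT and 7.55 ± 3.88 CPM in crkeap1b; log2 difference -1.35 ± 0.32, adjusted p 0.0386) and the period gene per3 (77.7, 81.7, 86.2 and 76.5 CPM in WT and 50.4, 58.6, 42.3 and 29.7 CPM in crkeap1b; log2 difference -0.85 ± 0.21, adjusted p 0.0398). The list average was -0.29, -0.08, -0.35 and -0.79 in the crispant pools, and without pool 2 the count was 1 higher and 16 lower of 33. For the glucose list it was 5 higher and 6 lower of 23, and without any other pool at most 1 gene of either list was called. Of 24 growth and pituitary hormone genes ghra, the growth hormone receptor, was the 1 called, and it was lower (18.9 ± 6.18 CPM in WT and 7.37 ± 2.67 CPM in crkeap1b; log2 difference -1.32 ± 0.34, adjusted p 0.0456; SD, n = 4). This call held in 1 of the 8 fits with a pool left out. As a list these genes did not fall, since the median was 0.17 (-0.25 on library totals) and 15 of 24 differences were positive. Without pool 2, 7 higher and 2 lower of 25 hormone genes were called, where 3301 of 12181 genes were called in all.

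Among stress genes, the transcription factor atf3 was at 260.2, 225, 195 and 170.1 CPM in WT and 104, 186, 88.1 and 64.9 CPM in crkeap1b (log2 difference -1.03 ± 0.27 at a limma-voom adjusted p of 0.0457), and npas4a, an activity-induced transcription factor of neurons, at 18.9, 27.8, 24.9 and 35.7 CPM in WT and 10.9, 15.6, 12.1 and 6.06 CPM in crkeap1b (log2 difference -1.22 ± 0.30, adjusted p 0.0399). calr, a chaperone of the endoplasmic reticulum, fell as well (42.6, 46.9, 35.0 and 41.2 CPM in WT and 18.5, 32.05, 14.1 and 12.1 CPM in crkeap1b; log2 difference -1.14 ± 0.26, adjusted p 0.0335). These were the calls among 30 immediate early, 23 amino acid stress (atf3 stands in both) and 20 chaperone genes. Without pool 2 they were 1 higher and 6 lower of 30 for the immediate early genes, 2 higher and 4 lower of 23 for amino acid stress and 1 higher and 2 lower of 20 for chaperones, and without any other pool none. Over all genes the count without pool 2 was 3301 of 12181, a larger share than in each of these lists. Of 20 p53 response genes none was called, sesn1 being at 1674 ± 39.8 CPM in WT and 1423 ± 144 CPM in crkeap1b larvae (log2 difference -0.24 ± 0.20, adjusted p 0.448) and tp53inp1 at 282 ± 37.3 CPM in WT and 208 ± 16.6 CPM in crkeap1b larvae (log2 difference -0.43 ± 0.17, adjusted p 0.136; SD, n = 4).

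Interferon-stimulated genes were sparse. Only 7 of 25 passed the count filter, and stat1a, the transcription factor that carries the interferon signal, was called lower, at 181, 153, 178 and 193 CPM in WT and 71.3, 159, 72.02 and 66.7 CPM in crkeap1b (log2 difference -1.02 ± 0.25 at a limma-voom adjusted p of 0.0394). Its pool 2 value lay within the WT range, and the call held in 1 of the 8 fits with a pool left out. The 18 genes under the filter summed to 138, 99, 41 and 59 counts in WT and 17, 22, 32 and 36 counts in crkeap1b pools. Scaled, these were 47.4, 36.3, 13.8 and 20.1 CPM in WT and 8.09, 8.60, 16.1 and 21.8 CPM in crkeap1b, and the groups overlapped. All 25 had at least 1 count in WT pools, and 8 had none in any crkeap1b pool, among them the antiviral gene rsad2 with 14, 4, 1 and 0 counts in WT pools (named after its values were seen). Of 18 macrophage and neutrophil genes none was called (median -0.39), and their list average spread from -0.90 in crispant pool 2 to 0.28 in pool 3. The acute-phase genes saa (0.951, 0.391, 3.02 and 36.4 CPM) and lect2.1 (15.2, 8.21, 24.7 and 152 CPM) were highest in crkeap1b pool 4, at several times any WT pool (up to 10.6 and 41.0 CPM), and neither was called (log2 difference -0.15 ± 1.24, adjusted p 0.954 and log2 difference -0.21 ± 0.60, adjusted p 0.849).

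Lysosomal and autophagy genes gave no call in crkeap1b larvae. None of 50 lysosomal (median -0.03), 16 vacuolar ATPase (median 0.21, but -0.22 on library totals) or 22 autophagy genes (median 0.07, but -0.35) passed. The membrane protein lamp1a was at 654 ± 194 CPM in WT and 546 ± 102 CPM in crkeap1b larvae (log2 difference -0.22 ± 0.24 at a limma-voom adjusted p of 0.565), the protease gene ctsla at 436 ± 117 CPM in WT and 480.4 ± 122 CPM in crkeap1b larvae (log2 difference 0.16 ± 0.24, adjusted p 0.703) and the proton pump subunit atp6v0cb at 552 ± 79.4 CPM in WT and 695 ± 102 CPM in crkeap1b larvae (log2 difference 0.34 ± 0.20, adjusted p 0.289; SD, n = 4). Without crkeap1b pool 2, 8 of 50 lysosomal genes were called, 4 in each direction. For autophagy the count was 3 higher and 4 lower of 22, and for the vacuolar ATPase 2 higher and 1 lower of 16. Over all genes 3301 of 12181 were called in that fit, a larger share than in the lysosomal and vacuolar ATPase lists. No autophagy or vacuolar ATPase gene was called without any other single pool. Neuronal and glial genes had a median of -0.01, with 2 of 43 called, a share near the 3.97% of all genes. These were the glial filament gfap (97.0 ± 11.9 CPM in WT and 173 ± 38.6 CPM in crkeap1b; log2 difference 0.82 ± 0.19, adjusted p 0.0333) and the radial glia lipid binder fabp7a (138 ± 13.8 CPM in WT and 228 ± 48.9 CPM in crkeap1b; log2 difference 0.71 ± 0.19, adjusted p 0.0489). In DNA replication and mitosis 3 of 23 rose, stmn1a (log2 difference 1.37 ± 0.30, adjusted p 0.027), the histone h2az2a (log2 difference 0.94 ± 0.24, adjusted p 0.0447) and the spindle factor tpx2 (log2 difference 1.33 ± 0.34, adjusted p 0.0447). In the S100 family of calcium-binding proteins 2 of 12 rose, s100w (log2 difference 1.65 ± 0.38, adjusted p 0.036) and s100a11 (log2 difference 1.4995 ± 0.39, adjusted p 0.0459). In fatty acid synthesis it was 1 of 12, elovl2 (log2 difference 1.18 ± 0.28, adjusted p 0.0387), which elongates polyunsaturated fatty acids. None of 15 cholesterol synthesis genes was called. Without pool 2 the counts were 9 higher and 8 lower of 43 for neurons and glia, 11 higher and 1 lower of 25 for replication and mitosis and 7 higher and 1 lower of 12 for the S100 family, and without any other pool at most 1 gene of each was called. In all, 130 of the 472 called genes stood in at least 1 of the 44 lists, which held 1061 of the 11893 tested genes. The lists were written with earlier results of these data known.

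crkeap1b and crkeap1a larvae were compared directly, without WT pools, to see where loss of either paralog differs. Of 11426 tested genes, 1 was called (0.00875%), and 363 had an unadjusted p under 0.05. The called gene was anpepb.1, an aminopeptidase, at 125, 146, 144 and 156 CPM in crkeap1a and 56.1, 40.3, 57.9 and 63.7 CPM in crkeap1b pools (log2 difference -1.44 ± 0.19 at a limma-voom adjusted p of 0.0475), without overlap. The call was lost with any of the 8 pools left out. Absence of calls does not make the groups alike. The median half-width of the 95% confidence interval was 0.63 on the log2 scale, and for 66.6% of genes the interval lay within -1 to 1. Among the transcripts of interest, keap1b was at 49.2, 106, 118 and 58.0 CPM in crkeap1a pools, all above the crkeap1b pools (log2 difference -1.63 ± 0.32, adjusted p 0.385, 95% confidence interval -2.31 to -0.94). For gclc (-0.74, interval -1.14 to -0.34) and prdx1 (-0.79, -1.34 to -0.25) the intervals lay below 0, yet neither passed adjustment. gstp1.2 was at 251 ± 81.2 CPM in crkeap1a and 261 ± 90.5 CPM in crkeap1b larvae (SD, n = 4; 0.03, -0.62 to 0.69). crkeap1a pools also differed widely, with 35.4% to 46.2% of their counts in the 100 most abundant genes. The 81 Nrf2 targets tested here gave no call in either direction.

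Against the mosaic crispants of both paralogs the crkeap1b larvae differed in 2376 of 12002 genes (19.8%), with 1210 higher (10.1%) and 1166 lower (9.72%) in crkeap1b larvae. On library totals without TMM these were 431 and 4105, the median over all genes was -0.57 in place of -0.04, and 2366 of the 2376 kept their direction. With single pools left out 1063 to 4280 genes were called, the most without crkeap1b pool 2, and 919 in each of these fits. Of 87 Nrf2 targets, 33 were lower and 14 higher in crkeap1b larvae. Each of the 6 marked targets was lower, with an adjusted p under 0.05. prdx1 was at 809, 797, 860.1 and 651 CPM in crkeap1a/b pools (log2 difference -3.57 ± 0.22 at a limma-voom adjusted p of 8.78e-08), gclc at 299, 312, 341 and 313 CPM (log2 difference -2.20 ± 0.17, adjusted p 8.89e-07), and nqo1 at 227, 232, 241 and 188 CPM (log2 difference -1.24 ± 0.18, adjusted p 2.33e-04). gclm (log2 difference -1.36 ± 0.27, adjusted p 0.00315) and gsr (log2 difference -2.36 ± 0.27, adjusted p 3.67e-05) followed. pgd, without a count in crkeap1b pools, was at 66.5, 42.8, 40.9 and 66.7 CPM in crkeap1a/b pools, so that it was at least 36.6-fold lower in crkeap1b larvae, taking 3 counts per library as the floor.

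In the other direction, the 2 largest differences were epidermal. krt1-19e was at 21.5, 7.02, 13.5 and 27.4 CPM in crkeap1a/b pools, well under both crkeap1b and WT pools (log2 difference 5.67 ± 0.36 at a limma-voom adjusted p of 8.78e-08). tgm1l3 was at 1.39, 0.702, 0.660 and 0.339 CPM (log2 difference 5.08 ± 0.54, adjusted p 1.40e-05) and tgm1l6 at 2.08, 0, 0.330 and 1.35 CPM (log2 difference 4.80 ± 0.76, adjusted p 6.19e-04). The chitinase gene chia.3, of enterocytes, was at 0.693, 0.351, 0.330 and 0 CPM (log2 difference 4.85 ± 0.53, adjusted p 2.18e-05). The plasma protein gene ahsg2, at 3.47, 2.81, 0 and 2.03 CPM (log2 difference 4.85 ± 0.64, adjusted p 1.28e-04), was likewise lower in every crkeap1a/b pool than in any crkeap1b pool. amy2al2 was the reverse, at 83.9, 29.5, 84.8 and 122 CPM in crkeap1a/b pools (log2 difference -5.73 ± 0.87, adjusted p 4.04e-04). Of lists, 57 of 65 ribosomal proteins, 38 of 72 respiratory chain genes, and 28 of 44 muscle genes were higher in crkeap1b larvae, and 13 of 54 lysosomal genes lower. Over all genes 10.1% were higher and 9.72% lower. On library totals, where most calls over all genes were lower, list counts of this comparison are not given. The summed muscle genes were at 38957 to 49152 CPM in crkeap1a/b pools, below every WT pool. The list counts share the crkeap1b pools with the comparison against WT. Keratins, amylases, trypsins, globins, opsins, crystallins and ferritins have close copies in the genome, so how the counting divided reads between copies makes single values of these genes uncertain.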

How the data were processed

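RNA was measured in pools of 10 larvae at 7 dpf. Per the labels and the study's methods, the authors prepared QuantSeq 3′ libraries, sequenced them single-end, and according to the submitters' processing notes used FastQC 0.72, cutadapt 1.16, STAR 2.7.5b on danRer11 and featureCounts 1.6.3. The deposited values are whole-number read counts per gene, not normalized, in 16825 rows and 32 libraries. Of these rows, 786 carried no ID and held 35.0% to 42.8% of the counts of the 8 pools compared. These rows named no gene and were left out of library sizes and tests. The other 16039 rows were named by gene ID in a RefSeq table (15617 matched, 422 did not), and 22 IDs stood on 2 rows.

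The study's methods name limma-voom, and this was the main test. The filter, the scaling and the choice of pools were set here. Genes were filtered by filterByExpr (minimum count 10), scaled by TMM (edgeR 4.0.16) and tested by limma-voom (limma 3.58.1, R 4.3.3) without covariate, on the 2 groups of a comparison alone, since crispant pools spread more than other groups. Genes with a Benjamini-Hochberg adjusted p under 0.05 were called. CPM were scaled over the 16 pools of WT, crkeap1b, crkeap1a and crkeap1a/b, and log2 CPM used a prior count of 2. Single library measures were compared by exact permutation tests. Alternatives were edgeR's quasi-likelihood test, DESeq2 1.42.0, other scalings, no filter, a model of all 8 groups, sample quality weights, a replicate block and each pool left out.

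Genes are named by a rule: keap1a, keap1b, nfe2l2a and the targets the study marks, the 12 largest non-overlapping rises and falls with a mean of at least 5 CPM in the higher group, the 6 smallest p-values, up to 4 called members of each of 44 gene lists (or up to 2 abundant members where none was called), and the largest differences between crispant groups and between crispant pools. The members and lists were chosen with earlier results of these data known. Lists are described by counts and medians without a test. Counting error alone limits a value of 0 to under 3 counts. Some genes that the rule names are not reported here. Sequences of guides and genes were not analysed here.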

Additional observations from a re-analysis of the deposited data

Results flagged for a closer look

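Of 236 sets of 4 pools checked for the genes named, 15 had 1 pool far from the other 3, a gap that chance alone gives in about 1 of 20 such sets. The number of flags was thus near that rate, and some genes were named for their wide spread among crkeap1b pools. crkeap1b pool 2 stood apart from the other crkeap1b pools in acer2 at 23.8 CPM against 6.67 to 8.06 CPM, rnf213a at 27.7 CPM against 8.06 to 9.51 CPM, tktb at 82.5 CPM against 151 to 161 CPM and stat1a at 159 CPM against 66.7 to 72.02 CPM. In all 4 genes it was the crispant pool nearest to the WT mean. crkeap1b pool 4 stood apart in serpinh1b at 40.02 CPM against 21.4 to 23.7 CPM, gfap at 231 CPM against 152 to 155 CPM, saa at 36.4 CPM against 0.391 to 3.02 CPM and lect2.1 at 152 CPM against 8.21 to 24.7 CPM. crkeap1b pool 1 did so in gvin1l2 at 2.85 CPM against 1.01 to 1.21 CPM. Among WT pools, pool 1 stood apart in fabp7a at 158 CPM against 128 to 133 CPM and tpx2 at 10.998 CPM against 4.38 to 5.49 CPM, pool 2 in nfe2l2a at 479 CPM against 362 to 381 CPM and sqstm1 at 307 CPM against 159.9 to 178 CPM, and pool 3 in slc25a4 at 1.68 CPM against 27.1 to 30.6 CPM and cox5ab at 102 CPM against 118 to 119.7 CPM.

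In direct tests between crispant groups, anpepb.1 was the 1 gene called between crkeap1b and crkeap1a larvae (log2 difference -1.44), a call lost with any of the 8 pools left out, with RLE size factors, without a filter, with rows without an ID kept and under the replicate block. Pools did not overlap for 292 of the 11426 genes tested in that comparison, against 1537 of 11893 in the comparison with WT. Between crkeap1b and crkeap1a/b larvae 2376 genes were called.

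Rows without an ID were left out of every comparison above. When they were kept, 385 of them were tested against WT and 10 were called by limma-voom, 3 higher and 7 lower in crkeap1b larvae (2.60%). In that fit 414 of all 12255 rows were called, a larger share.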

How the results depend on the processing

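All 472 genes called against WT kept their direction in every alternative run. They were chosen for their difference in these same pools, so this is little test of them. Their number did not hold. It was 558 by edgeR's quasi-likelihood test, 1177 by DESeq2 (of 9354 genes it gave an adjusted p), 2548 in 1 model of 8 groups, 2874 with sample quality weights, 465 with RLE size factors, 468 with TMM computed without the top row, and 360 without a filter. Chosen after seeing the data, keeping rows without an ID gave 414, and library totals without TMM gave 1694, of which 163 were higher against 316 of 472. Higher calls were 66.9% with TMM and 9.62% on library totals, and 54.5% and 54.6% in the model of 8 groups and with quality weights. With 1 pool left out the count ran from 38 (without crkeap1b pool 3) to 3301 (without crkeap1b pool 2). Called members of any list numbered 130, against 307 by DESeq2, 430 in 1 model of 8 groups, 469 with quality weights, and 15 to 529 with 1 pool left out. Between crkeap1b and crkeap1a larvae 1 gene was called. It was 6 by DESeq2, 13 in 1 model of 8 groups and 2 with quality weights, and 0 with RLE size factors, without a filter, with rows without an ID kept, under the replicate block and with any pool left out, where limma-voom still gave 268 to 788 genes at an unadjusted p under 0.05. Against crkeap1a/b larvae the 2376 calls became 4014, 4076 and 4536 in 1 model of 8 groups, with quality weights and on library totals, and 1063 to 4280 with 1 pool left out. The difference in genes detected was -409.8 to -230.5 with 1 pool left out, where the design allows no p below 0.0571. The causes of these shifts were not tested.

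Replicate numbers did not pair the pools. The correlation of deviations between same-numbered crkeap1b and WT pools was -0.15 to -0.02, and 0 pools correlated best with their own number. The replicate block gave 265 calls against WT (209 higher), 0 against crkeap1a and 2087 against crkeap1a/b.

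Of 125 single gene values, all kept their direction and side of the threshold with RLE size factors and with TMM without the top row. Other settings moved more of them. Calls were lost for 23 values under the replicate block, 18 on library totals and 10 without a filter. They were lost for 7 with rows without an ID kept, 5 by edgeR and 1 by DESeq2. Calls were gained for 7 in the model of 8 groups, 6 on library totals, 5 with quality weights and 2 by DESeq2. Over the fits that left out 1 pool, a call was lost 437 times and gained 7 times, against 549 results that stayed the same. On library totals gclc (-0.31), sqstm1 (-0.0868), ctsla (-0.28), atp6v0cb (-0.0948) and psmb4 (-0.19), none of them called, changed sign. The log2 difference of saa, -0.15 with all pools, was 0.79 by edgeR, 0.90 by DESeq2, 1.05 with the replicate block and -1.54 to 0.74 with 1 pool left out. That of lect2.1, -0.21, was 0.68, 0.72, 0.104 and -0.98 to 0.38 in the same order.

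With 4 pools a group and a median 95% interval of 0.57 to either side on the log2 scale, smaller differences against WT could mostly not be resolved. Pools are the unit of error, and whether they came from separate clutches is not stated. Edited and unedited transcripts were not distinguished, so the extent of editing in each pool, crkeap1b pool 2 included, was not analysed here.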

Other observations

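Antiviral genes below the count filter differed in how many reads they had, and were not tested. isg15, a ubiquitin-like modifier induced by interferon, had 51, 14, 7 and 6 counts in WT and 3, 2, 3 and 3 counts in crkeap1b pools, so WT pool 1 held most of them. Over all genes, 17 with at least 12 counts in WT pools together had no count in any crkeap1b pool, and 1 showed the reverse. These are raw counts. The median count of a gene was 30 to 34 in WT and 24, 29, 22 and 18 in crkeap1b pools, so scarce genes reach 0 more readily in crkeap1b. b2ml, the partner chain of class I antigen presentation, was abundant enough to be tested and was at 519.99, 517, 479.8 and 555 CPM in WT and 268, 512, 277 and 323 CPM in crkeap1b pools, with crkeap1b pool 2 inside the WT range. It did not pass the threshold (log2 difference -0.64, limma-voom adjusted p 0.0924). These genes were named after their values were seen.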
